A study of Mus musculus with 29 samples.

Results

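TIMP proteins are secreted inhibitors that block matrix metalloproteases, and membrane-type metalloproteases are the members of that protease family that stay anchored at the cell surface. The values below cover the mRNAs of all 4 mouse TIMP genes (Timp1, Timp2, Timp3 and Timp4) and of 5 membrane-type metalloproteases (Mmp14, Mmp15, Mmp16, Mmp17 and Mmp24), which together are 9 of the 36172 gene rows in the count table. They were matched by gene symbol, and each symbol was on 1 row. The set was picked on these same data, because Timp4 is among the genes with the largest rise in the positive over the negative fraction of the Aldh1l1 line. Values from that contrast and from others against the same positive libraries are therefore given as a description, without p-values. Where the genes that the fit over the whole table called are counted for them, the count is on the values used for picking and supports nothing.

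The libraries come from TRAP-RNAseq, in which an anti-GFP antibody captures ribosomes that carry EGFP-tagged protein L10a from homogenate of a hemisected brain. Aldh1l1-Cre/Ert2+; NuTRAP+ mice (3 animals, Aldh1l1-NuTRAP, "A" in the plots) carry a tamoxifen-dependent Cre driven by an astrocyte promoter, and Cx3cr1-Cre/Ert2+; NuTRAP+ mice (6 animals, Cx3cr1-NuTRAP, "C") carry the same kind of Cre under a promoter of microglia that other brain macrophages also use. All mice of both lines carried the NuTRAP allele and received tamoxifen on 5 consecutive days at about 3 months of age, and no library without Cre was analysed here. RNA on the beads is the positive fraction (Pos), RNA left unbound is the negative fraction (Neg), the cleared homogenate is the input (Input) and RNA of unfractionated brain is whole tissue (Slice). The 29 libraries were 3 Aldh1l1-NuTRAP positive, 3 Aldh1l1-NuTRAP negative, 6 Cx3cr1-NuTRAP positive, 6 negative, 6 input and 5 whole tissue libraries, and libraries of one mouse carry the same animal number.

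Metalloproteases and TIMPs work as pairs: the protease cleaves collagens, laminins, proteoglycans and receptors, and a TIMP closes its active site. Mmp14, Mmp15, Mmp16 and Mmp24 are held by a transmembrane segment and Mmp17 by a GPI lipid anchor. Timp2 has a further role, since it bridges Mmp14 to the inactive form of Mmp2 and so takes part in activating it. Timp3 is the TIMP that binds to the extracellular matrix, and it also inhibits several ADAM and ADAMTS proteases. Timp4 has a narrower tissue range than the others, with heart and brain among its main sites. In brain, Timp4 is known as an astrocyte transcript and Mmp24 as a neuronal one.

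Timp1, Timp3 and Timp4 lie inside synapsin genes, which encode proteins of synaptic vesicles. By the GENCODE annotation of GRCm38 (mm10), Timp1 at chrX:20870166-20874735 on the plus strand lies within Syn1, Timp3 at chr10:86300372-86349506 on the plus strand lies within Syn3, and Timp4 at chr6:115241892-115252205 on the minus strand lies within Syn2, each on the strand opposite to its host. Timp1 fits within 1 intron of Syn1 and shares 0 exon bases with it. The annotated exons of Timp4 and Syn2 overlap over 90 bases and those of Timp3 and Syn3 over 1733 bases. Timp2 is at chr11:118301069-118355740 (minus), Mmp14 at chr14:54431612-54445364 (plus), Mmp15 at chr8:95352268-95375080 (plus), Mmp16 at chr4:17852893-18119145 (plus), Mmp17 at chr5:129584169-129611099 (plus) and Mmp24 at chr2:155775342-155818366 (plus). Timp2 shares its span with BC100451 on the same strand, so reads of these genes can be confused, and Mmp16, Mmp17 and Mmp24 overlap Gm11860, Gm6139 and BC029722 on the opposite strand.

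Promoter windows from RefSeq (GRCm38.p6, 250 bases before to 50 bases after the start) were found for 7 of the 9 genes, all but Mmp16 and Mmp17. Those of Timp4, Timp3 and Mmp14 are shown because these 3 genes were the highest of the set in the Aldh1l1-NuTRAP positive fraction relative to the negative fraction, and that of Timp2 because this TIMP was lower there. Capitals mark matches on either strand to the NFI half-site TTGGC, the GC box GGGCGG, the AP-1 motif TGANTCA and the STAT motif TTCNNNGAA. In the order Timp4, Timp3, Mmp14 and Timp2, the windows are chr6:115252156-115252455 (minus), chr10:86300162-86300461 (plus), chr14:54431348-54431647 (plus) and chr11:118355362-118355661 (minus).
Timp4: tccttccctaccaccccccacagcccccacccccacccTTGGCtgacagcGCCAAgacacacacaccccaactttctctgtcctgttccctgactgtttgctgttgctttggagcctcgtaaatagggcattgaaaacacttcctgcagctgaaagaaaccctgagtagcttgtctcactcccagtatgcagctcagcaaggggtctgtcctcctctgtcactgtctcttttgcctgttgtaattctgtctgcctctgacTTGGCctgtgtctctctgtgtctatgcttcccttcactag
Timp3: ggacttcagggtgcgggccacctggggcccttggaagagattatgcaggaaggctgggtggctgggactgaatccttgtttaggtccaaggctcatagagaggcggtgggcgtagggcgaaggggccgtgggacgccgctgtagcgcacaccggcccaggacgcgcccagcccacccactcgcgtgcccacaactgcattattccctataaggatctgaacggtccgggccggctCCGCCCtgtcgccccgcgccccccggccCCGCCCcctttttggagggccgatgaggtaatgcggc
Mmp14: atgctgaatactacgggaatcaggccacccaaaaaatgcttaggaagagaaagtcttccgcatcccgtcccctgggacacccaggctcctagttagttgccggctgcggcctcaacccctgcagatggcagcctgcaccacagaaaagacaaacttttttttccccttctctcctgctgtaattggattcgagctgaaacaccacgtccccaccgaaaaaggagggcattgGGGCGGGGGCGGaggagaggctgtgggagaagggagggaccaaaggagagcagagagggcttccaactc
Timp2: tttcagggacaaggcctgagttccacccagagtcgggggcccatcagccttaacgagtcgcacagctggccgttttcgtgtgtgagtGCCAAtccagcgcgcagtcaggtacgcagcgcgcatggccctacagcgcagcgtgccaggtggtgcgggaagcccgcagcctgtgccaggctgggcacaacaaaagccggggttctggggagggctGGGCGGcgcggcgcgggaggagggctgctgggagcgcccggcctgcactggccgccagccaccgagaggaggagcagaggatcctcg
The Timp4 window held 3 NFI half-sites and 0 GC boxes, and its first pair of half-sites faced each other with 7 bases between them. NFI half-sites occurred in 46.7% of all 32851 promoter windows, and 3.75% held 3 or more. The Timp3 and Mmp14 windows had the reverse content, with 2 GC boxes and 0 NFI half-sites each, where 35.7% of all windows held a GC box. The Timp2 window held 1 of each. AP-1 (7.81% of all windows) and STAT (8.3%) matches were found in 0 of these 4 windows. The Timp4 window also differed in base composition, with 2 CpG dinucleotides and 53.3% GC, against 24 CpG and 67% GC for Timp3, 25 and 68.7% for Timp2, and 10 and 56% for Mmp14. The median over all windows was 7 CpG and 52.7% GC. The Timp4 window lies upstream of the gene as counted, which begins at chr6:115251849 on the minus strand in the deposited rows. The windows of Timp3, Mmp14 and Timp2 hold the deposited start. These matches are letters in a window and say nothing about whether a factor bound there.

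The shallowest library held 4260949 counts (whole tissue, mouse 210) and the deepest 26857866. The lowest of the Aldh1l1-NuTRAP libraries were those of mouse 290, with 8782235 in the negative fraction. Both libraries of this mouse also stood apart, with a chi-square per gene (of the counts of 2 libraries) of 100.43 and 115.42 against the other positive libraries, where those 2 gave 13.42 between them, and of 63.15 and 66.16 against the other negative libraries, where those 2 gave 22.1. The Cx3cr1-NuTRAP negative library of mouse 155 did so in its group, at 44.97 to 61.69 against 4.22 to 12.39 among the other 5. Markers of the labelled cell types were high in the pulldowns: the summed level of 6 astrocyte markers was 11114 to 13414 CPM (counts scaled to a common library total) in the Aldh1l1-NuTRAP positive fraction and 1702 to 1916 CPM in the negative fraction, and that of 6 microglial markers was 2366 to 5646 CPM in Cx3cr1-NuTRAP positive libraries, against 302 to 339 CPM in input. Neuronal markers were still present in the Cx3cr1-NuTRAP positive fraction, at 4479 to 6906 CPM for 6 genes against 6223 to 6570 CPM in input.

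Timp4, Timp3 and Mmp14 were far higher in the Aldh1l1-NuTRAP positive fraction than in any other group. Timp4 was 605, 352 and 522 CPM in the positive libraries of mice 290, 293 and 294, and 47.4, 30.0 and 35.6 CPM in their negative libraries. Every positive library lay above every other library of the study, the next being 73.8 CPM. The fitted fold was 16.7 (log2 4.06, SE 0.30), which placed Timp4 at rank 10 of 13319 genes tested. Without mouse 290, whose libraries stood apart, the log2 differences were 4.05 for Timp4, 2.52 for Timp3, 3.05 for Mmp14, 1.38 for Mmp15, -0.48 for Timp2, -1.18 for Mmp16, -1.65 for Mmp17 and -1.6 for Mmp24. The mouse with the highest Timp4 in both fractions was 290, which also had the lowest Timp3 in both.

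Timp3, the TIMP that binds the matrix, was 407, 634 and 544 CPM in the positive and 105, 127 and 129 CPM in the negative libraries of the same mice. The fold was 5.58 (log2 2.48, SE 0.20). Mmp14, the membrane protease that pairs with Timp2, was 151, 154 and 138 CPM in the positive and 25, 20.6 and 23.2 CPM in the negative libraries, the fold being 8.19 (log2 3.03, SE 0.17). For both genes the positive and negative libraries did not overlap. Mmp15 was 52.5, 81.9 and 75.7 CPM in the positive and 33.2, 40.1 and 34.8 CPM in the negative libraries, with a fold of 2.46 (log2 1.30, SE 0.19), and these libraries did not overlap either.

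The other membrane-type proteases were lower in the positive fraction. Mmp17, the GPI-anchored one, was 26.2, 43.4 and 38 CPM in the positive and 129, 172 and 144 CPM in the negative libraries (log2 -1.70, SE 0.22). Mmp24 was 16, 19.2 and 24.9 CPM in the positive and 53.0, 65.8 and 101 CPM in the negative libraries (log2 -1.52, SE 0.27). Mmp16 was low throughout, at 4.06, 3.90 and 3.62 CPM against 7.21, 10.8 and 10.4 CPM (log2 -0.95, SE 0.24). Timp2 was 168, 283 and 233 CPM in the positive and 384, 458 and 433 CPM in the negative libraries, so the fractions did not overlap in CPM, while its fitted difference was smaller (log2 -0.55, SE 0.20) because the positive libraries were scaled up in the fit. The direction of each of the 8 genes from Timp2 to Mmp24 was the same in 3 of 3 mice.

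Timp1 stood apart from the other TIMPs. It had 0 to 21 counts in all 29 libraries, at most 1.17 CPM, and exceeded 20 counts in 1 library. It was the 1 member that did not enter the test of any comparison, and the other 8 exceeded 20 counts in every library. Among the genes tested, edgeR called 4 of these 8 higher in the positive fraction (Timp3, Timp4, Mmp14 and Mmp15), where 26.8% of 13319 genes were called higher, and 3 lower (Mmp16, Mmp17 and Mmp24), where 24.8% were. The set was chosen from this contrast, so nothing is read from these counts. Without mouse 293 or 294 Mmp16 was not called (log2 -0.87 and -0.83), and Timp2, which was not called, was called lower in 7 of 10 alternatives. These were DESeq size factors, totals alone, DESeq2, a mean of at least 100 counts, all groups in 1 fit, the mouse as a block and leaving out mouse 290, and over all 10 its log2 difference ran from -0.90 to -0.48.

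Scaling moved these values more than any other setting. The TMM factors were 0.731 to 0.779 in the Aldh1l1-NuTRAP positive libraries and 0.969 to 1.08 in all other libraries, so that the median log2 difference of all tested genes was 0.04 with TMM and -0.31 with library totals alone. Of the genes called, 52% were higher with TMM and 33.6% with totals alone. Under totals alone the log2 difference was 3.71 for Timp4, 2.13 for Timp3, 2.69 for Mmp14, 0.95 for Mmp15 and -0.90 for Timp2, and none of the 8 genes changed direction under any scaling run.

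**Figure D1:**
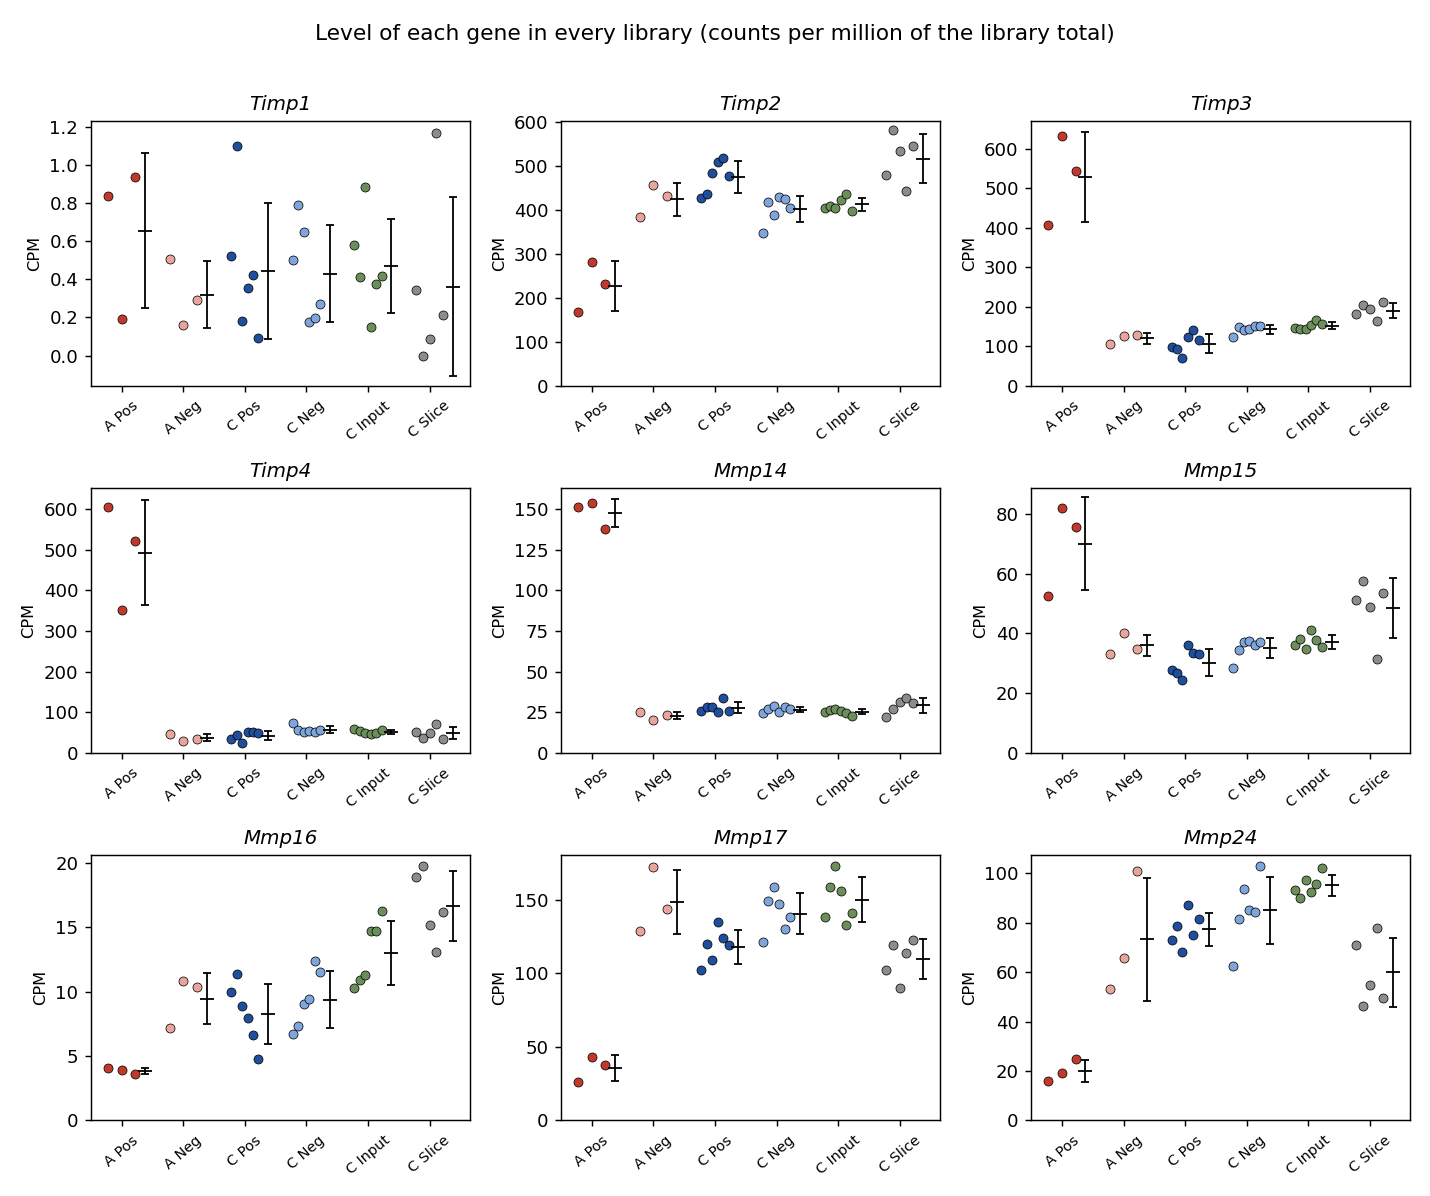
Level of each of the 9 genes (vertical axis, CPM, linear) in the 6 groups (horizontal axis), with 1 point per library in the order of mouse number and the mean ± SD beside them. The 3 Aldh1l1-NuTRAP positive libraries (A Pos) lie above all other libraries for Timp3, Timp4 and Mmp14 and below them for Timp2, Mmp16, Mmp17 and Mmp24. These levels use library totals. With TMM scaling, whose factors were 0.731 to 0.779 in A Pos, Timp2 and Mmp16 no longer lie below every other library. The share of all genes that lie apart in A Pos was not counted. The lower end of the Timp1 bar of Cx3cr1-NuTRAP whole tissue passes below 0.

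Other cell types moved with the same contrast. The 4 choroid plexus markers were all above the negative fraction, at a summed 2819 to 3335 CPM in the positive against 468 to 614 CPM in the negative libraries, and none was at 0. Of the 5 pericyte and smooth muscle markers 2 were above and 1 below, with a sum of 51.5 to 71.4 CPM against 30.8 to 49.0 CPM and Acta2 listed at 0 in every library, and of the 4 ependymal markers 2 were above, with a sum of 55.3 to 87.1 CPM against 21.8 to 36.5 CPM. All 6 neuronal, 6 oligodendrocyte and 6 microglial markers were below the negative fraction. The neuronal sum was 1271 to 1740 CPM against 5578 to 6831 CPM. So were 4 of 4 border macrophage, 4 of 5 fibroblast and 3 of 3 erythrocyte markers. Of the 4 oligodendrocyte precursor markers 1 was above and 3 were below, while their sum was higher, at 435 to 534 CPM against 315 to 350 CPM. The part of these cells in the levels of the TIMPs and proteases was not tested, and in bulk RNA fewer cells of a type and less RNA per cell cannot be told apart.

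Compared per length, the make-up of both families differed in the Aldh1l1-NuTRAP positive fraction. Timp2 was the main TIMP in the other 5 groups, at 78.7% ± 1.48 (SD, n = 6, Cx3cr1-NuTRAP negative) to 85.4% ± 2.58 (n = 6, positive) of the summed RPKM (CPM per kilobase of annotated exon) of the 4 TIMPs. In the Aldh1l1-NuTRAP positive fraction Timp4 made up 40.5% ± 11.9, Timp3 31.1% ± 5.82 and Timp2 28.0% ± 6.3 (SD, n = 3 each). The mice differed in which TIMP led there, since Timp4 ranged from 28.4% to 52.2% and Timp3 from 25.4% to 37%. The sum of the 4 TIMPs was 208 ± 10.1 RPKM in the positive and 131 ± 9.45 RPKM in the negative fraction. For the 5 membrane-type proteases the sum was 47.9 ± 4.64 RPKM in the positive and 49.7 ± 6.84 RPKM in the negative fraction, with overlapping libraries. These sums use library totals and depend on the scaling. The sizes of the sums and shares also depend on the lengths, since counts were assigned to RefSeq genes and lengths are from GENCODE. For Timp4 the deposited span was chr6:115245616-115251849 and the GENCODE span chr6:115241892-115252205. For Mmp14 the deposited end was chr14:54441258 and the GENCODE end chr14:54445364. With TMM scaling, chosen for the sums after seeing the data, the proteases summed to 62.8 ± 4.29 RPKM in the positive and 49.5 ± 5.6 RPKM in the negative fraction, without overlap, and the TIMPs to 273 ± 4.54 and 130 ± 5.97 RPKM. The composition of the protease sum differed: Mmp14 was 52.0% ± 6.14 of the sum in the positive against 7.9% ± 1.82 in the negative fraction, Mmp15 26.9% ± 3.65 against 13.6% ± 1.59, Mmp17 11.2% ± 1.75 against 45.3% ± 5.16, and Mmp24 8.93% ± 1.74 against 31.1% ± 7.13. The Mmp14 shares ranged from 47.6% to 59% in the positive and from 6.62% to 9.98% in the negative libraries and did not overlap. In the 4 Cx3cr1-NuTRAP groups Mmp17 held a mean of 36.6% to 41.4% of the protease sum and Mmp24 28.3% to 36.6%. A share within a library does not depend on how that library is scaled, and it shows unequal change, not which gene was constant.

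**Figure D2:**
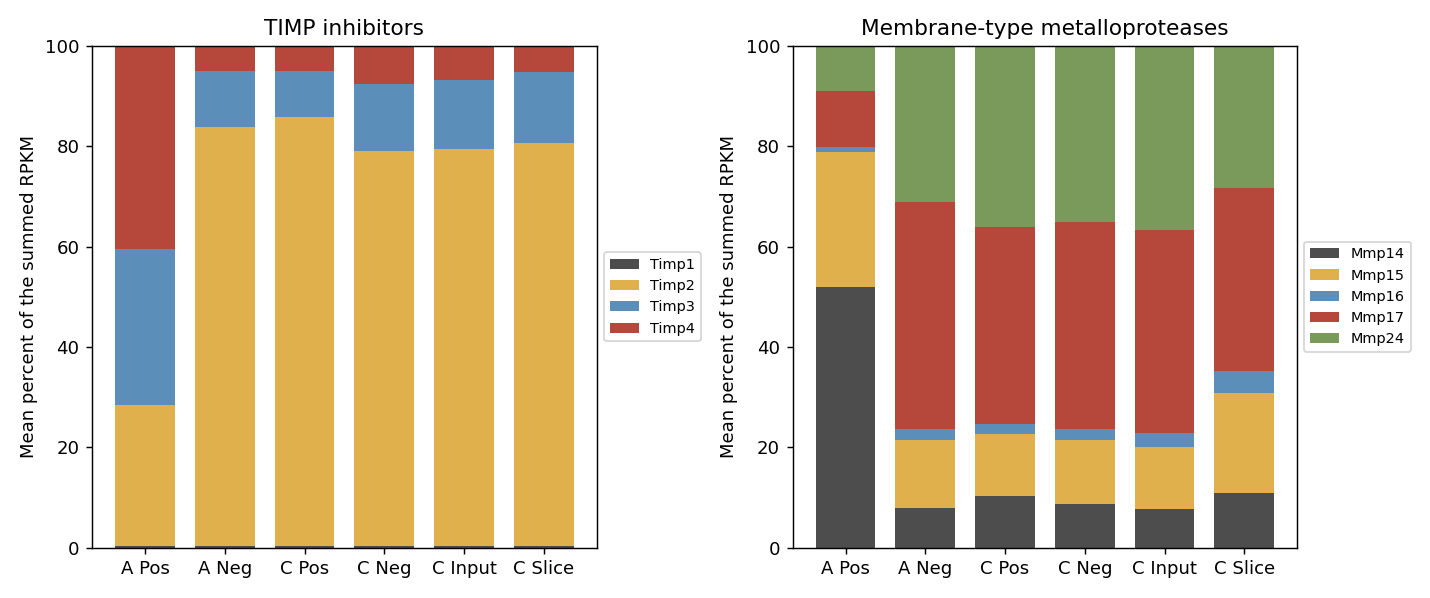
Mean share of each gene (stacked bars, percent of the summed RPKM of its family, from 0 to 100) in the 6 groups, TIMPs on the left and membrane-type metalloproteases on the right. Timp2 is the largest block in every group but A Pos, where Timp4 is 40.5%, and Mmp14 is 52.0% of the proteases in A Pos and 7.66% to 10.9% in the other groups.

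Timp3 and Timp4 did not follow their synapsin hosts in the astrocyte pulldown, and Timp1 had too few counts to be compared with its host. Syn2, which contains Timp4, was 106, 198 and 169 CPM in the positive and 360, 554 and 579 CPM in the negative libraries of mice 290, 293 and 294 (log2 -1.31, SE 0.27), where Timp4 was higher. Syn3, which contains Timp3, was 5.08, 17.1 and 12.2 CPM against 24.3, 45.8 and 52.9 CPM (log2 -1.49, SE 0.44). Syn1, which contains Timp1, was 97.9, 200 and 165 CPM against 361, 676 and 662 CPM (log2 -1.53, SE 0.32). All 3 hosts were lower in 3 of 3 mice. The libraries are stranded, so each gene and its host can be counted apart. Among the 26 other libraries Timp4 spanned 24.3 to 73.8 CPM while Syn2 spanned 331 to 579 CPM, and Timp3 spanned 71.0 to 212 CPM while Syn3 spanned 24.3 to 85.9 CPM.

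**Figure D3:**
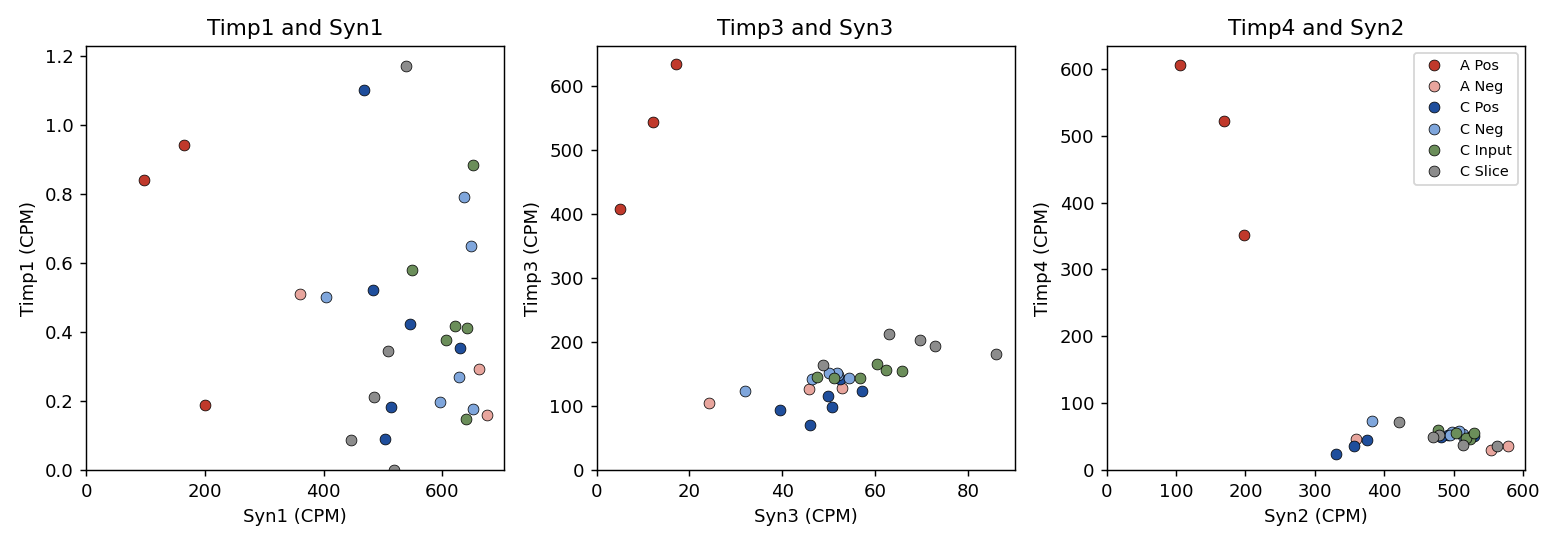
Each nested TIMP (vertical axis, CPM) against its synapsin host (horizontal axis, CPM), with 1 point per library, coloured by group. The 3 A Pos libraries hold Timp4 at 352 to 605 CPM with Syn2 at 106 to 198 CPM and Timp3 at 407 to 634 CPM with Syn3 at 5.08 to 17.1 CPM, apart from all other libraries.

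Set beside the Cx3cr1-NuTRAP positive fraction, the Aldh1l1-NuTRAP positive fraction had 14.3-fold more Timp4 (log2 3.84, SE 0.23), 6.54-fold more Mmp14 (log2 2.71, SE 0.12), 6.12-fold more Timp3 (log2 2.61, SE 0.19) and 2.87-fold more Mmp15 (log2 1.52, SE 0.15). It had less Timp2 (log2 -0.75, SE 0.15), Mmp16 (log2 -0.80, SE 0.28), Mmp17 (log2 -1.41, SE 0.15) and Mmp24 (log2 -1.63, SE 0.15). This comparison uses the same astrocyte libraries as the contrast above and crosses lines and animals, so line, animals and cell type cannot be told apart. In its flow cytometry and imaging work the study collected Cx3cr1-NuTRAP brains later after tamoxifen than Aldh1l1-NuTRAP brains. The interval of each library here is not stated clearly, so it cannot be told apart from line either. The Cx3cr1-NuTRAP positive libraries also fell in 2 sets, described below. edgeR called 4 of the 8 genes higher, where 30.6% of 13676 genes were, and 4 lower, where 33.1% were, and nothing is read from these counts. Mmp16 was not called without mouse 155, 192, 293 or 294 (log2 -0.72, -0.68, -0.81 and -0.74). The median log2 difference of all tested genes was -0.08 with TMM and -0.39 with totals alone, and the share of calls that were higher was 48% and 31.3%. Above without overlap were 6 astrocyte, 4 choroid plexus, 2 ependymal, 1 oligodendrocyte precursor, 1 pericyte and smooth muscle and 1 fibroblast marker. Below were 6 neuronal, 6 microglial, 5 oligodendrocyte, 4 border macrophage, 4 fibroblast, 3 oligodendrocyte precursor and 1 endothelial marker. The choroid plexus sum was 2819 to 3335 against 209 to 1015 CPM. The part of these cells was not tested.

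The 23 Cx3cr1-NuTRAP libraries were not used to pick the genes, and differences among them were tested with edgeR's quasi-likelihood test, with p-values adjusted by Benjamini-Hochberg over all genes tested. Before the comparisons, the positive libraries themselves stood apart in 2 sets. By the chi-square per gene between pairs of libraries, linked by their average, mice 155, 192 and 194 formed one set and mice 209, 210 and 277 the other. It was 20 to 44.3 within the first set, 9.28 to 16.6 within the second and 26.2 to 176 across them, so the ranges overlapped and the library of mouse 192 lay nearest to the other set. The labels give no batch, and animals, batch and handling cannot be told apart in these sets. Each comparison of the positive fraction was also fitted within each set, a choice made after seeing the data, with 3 mice a set (2 whole tissue libraries in the first).

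In the positive fraction against input, Timp2 rose slightly and Timp3 and 4 of the 5 membrane-type proteases fell, none by as much as 2-fold. Timp2 was 428 to 519 CPM (median 481) in the positive libraries and 399 to 438 CPM (median 408) in input, so the groups overlapped slightly, and it was higher in 6 of 6 mice (log2 0.22, SE 0.06, adjusted p = 0.0101). Timp3 was 71.0 to 142 CPM (median 107) against 144 to 166 CPM (median 150) with no overlap, and lower in 6 of 6 mice (log2 -0.49, SE 0.12, adjusted p = 0.00461). Timp4 was 24.3 to 52.6 CPM (median 47.4) against 46.4 to 59.4 CPM (median 52.1), and this difference did not pass (log2 -0.27, SE 0.15, 95% interval -0.56 to 0.01, adjusted p = 0.137).

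Among the proteases, Mmp17 was 102 to 135 CPM (median 119) in the positive libraries and 133 to 173 CPM (median 148) in input, overlapping by 1 library on each side, and was lower in 6 of 6 mice (log2 -0.33, SE 0.08, adjusted p = 0.00348). Mmp24 was 68.2 to 87.3 CPM (median 76.8) against 90.1 to 102 CPM (median 94.4) with no overlap (log2 -0.28, SE 0.06, adjusted p = 0.00244). Mmp15 was 24.5 to 36.3 CPM (median 30.4) against 34.8 to 41.0 CPM (median 37.1), lower in 6 of 6 mice (log2 -0.28, SE 0.09, adjusted p = 0.0189). Mmp16 was 4.79 to 11.4 CPM (median 8.43) against 10.3 to 16.3 CPM (median 13), lower in 5 of 6 mice (log2 -0.65, SE 0.19, adjusted p = 0.0131). Mmp14 was 25.6 to 34.2 CPM (median 27.1) against 22.9 to 26.9 CPM (median 25.7) and did not pass (log2 0.16, SE 0.08, adjusted p = 0.114).

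In all, 1 of the 8 genes tested was called higher, where 23.3% of 13838 genes were, and 5 were called lower, where 25.6% were. Nothing particular to the set is read from 8 genes. With the mouse as a block, Mmp16 lost its call (log2 -0.66, adjusted p = 0.054), as it did without mouse 210 (log2 -0.55, adjusted p = 0.0555) or 277 (log2 -0.45, adjusted p = 0.0532). Mmp15 lost its call without mouse 192 (log2 -0.21, adjusted p = 0.114) or 194 (log2 -0.22, adjusted p = 0.0594). With all groups in 1 fit, Mmp24 (log2 -0.26, adjusted p = 0.105) and Mmp15 (log2 -0.26, adjusted p = 0.0686) lost their calls.

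Within the sets of mice, Timp3 and Mmp24 were called lower than input in both. Timp3 had a log2 difference of -0.68 (adjusted p = 0.00133) in mice 155, 192 and 194 and -0.31 (adjusted p = 0.00143) in mice 209, 210 and 277, and Mmp24 -0.31 (adjusted p = 0.0197) and -0.23 (adjusted p = 0.00875). The other calls held in 1 set. Mmp16 was at -0.07 (adjusted p = 0.75) in the first set and -1.21 (adjusted p = 5.46e-06) in the second, Mmp15 at -0.43 (adjusted p = 0.00743) and -0.13 (adjusted p = 0.181), Mmp17 at -0.47 (adjusted p = 0.00649) and -0.16 (adjusted p = 0.0577), and Timp2 at 0.18 (adjusted p = 0.138) and 0.28 (adjusted p = 0.000151). Timp4 was called lower in the first set (log2 -0.59, adjusted p = 0.0235) and was at 0.04 (adjusted p = 0.701) in the second. Over all genes, 3029 of 14048 were called higher and 2895 lower in the first set, and 4227 and 4129 of 14160 in the second. Nothing particular to these genes is read from the calls within a set. The difference between the sets was not tested.

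Between the positive fraction and input, 6 of 6 microglial, 4 of 4 border macrophage and 1 of 5 endothelial markers were higher in the former without overlap, the border macrophage markers at a summed 59.8 to 178 CPM against 8.85 to 14.9 CPM, while 3 of 6 astrocyte, 5 of 6 oligodendrocyte, 4 of 4 oligodendrocyte precursor, 2 of 4 choroid plexus, 1 of 5 fibroblast and 1 of 5 pericyte and smooth muscle markers were below. The oligodendrocyte precursor sum was 87.5 to 198 CPM in the positive fraction and 274 to 311 CPM in input. The astrocyte sum was 1376 to 2247 CPM in the positive fraction and 2366 to 2612 CPM in input, with 0 markers listed at 0. The part of these cell types in the differences of Timp3 and the proteases was not tested.

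**Figure D4:**
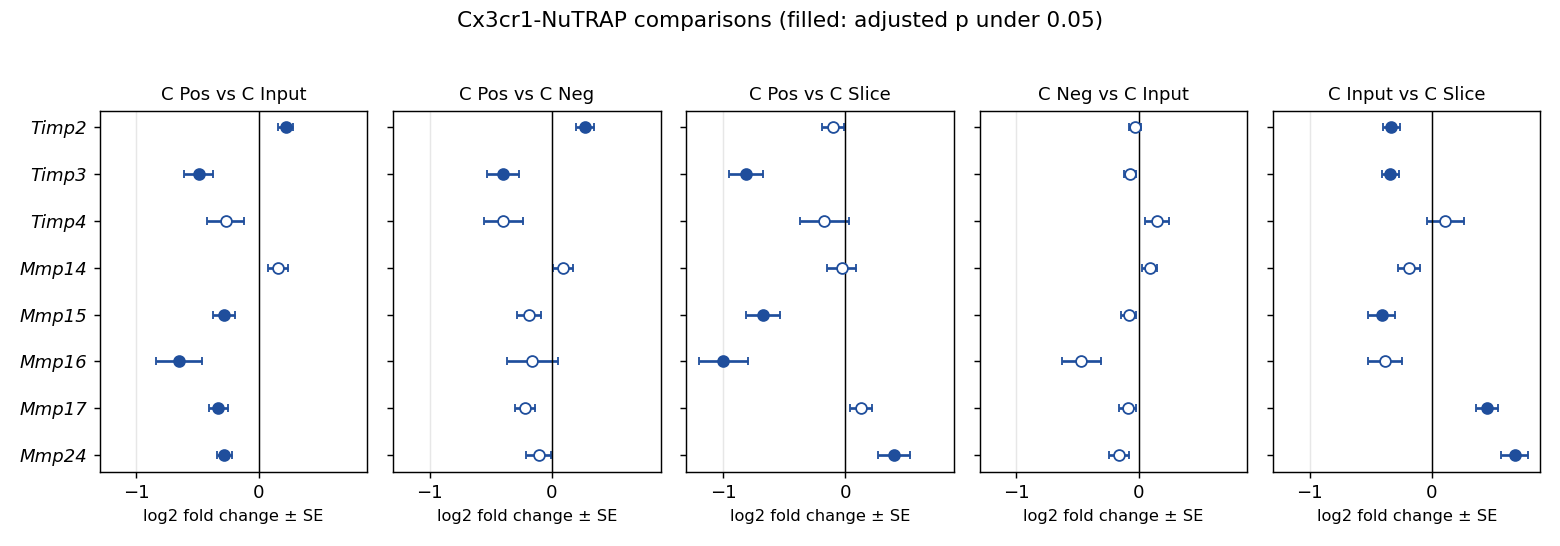
Log2 fold change ± SE (horizontal axis) of the 8 tested genes (rows) in the 5 Cx3cr1-NuTRAP comparisons, with filled points where the adjusted p of edgeR's test was under 0.05. Timp3 is at -0.49, -0.40 and -0.81 in the 3 comparisons of the positive fraction, and Mmp24 runs from -0.28 against input to 0.40 against whole tissue.

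Against the negative fraction fewer of the genes differed. Timp2 was 349 to 430 CPM (median 413) in the negative libraries and higher in the positive library of 6 of 6 mice (log2 0.27, SE 0.07, adjusted p = 0.0166). Timp3 was 123 to 152 CPM (median 147) there and lower in the positive library of 6 of 6 mice (log2 -0.40, SE 0.13, adjusted p = 0.0335). Timp4, at 51.1 to 73.8 CPM (median 55.4), was also lower in the positive library of 6 of 6 mice but did not pass (log2 -0.40, SE 0.16, 95% interval -0.71 to -0.09, adjusted p = 0.0787). Mmp17 did not pass either (log2 -0.22, SE 0.08, adjusted p = 0.0571). The log2 differences of Mmp14, Mmp15, Mmp16 and Mmp24 were 0.09, -0.19, -0.16 and -0.11, with adjusted p from 0.186 to 0.627. So 1 of 8 genes was called higher, where 12.8% of 13776 genes were, and 1 lower, where 11.6% were. The markers below the negative fraction without overlap were 3 of 6 astrocyte, 5 of 6 oligodendrocyte, 3 of 4 oligodendrocyte precursor, 1 of 5 fibroblast and 1 of 4 choroid plexus markers, with astrocyte sums of 1376 to 2247 against 2323 to 2649 CPM and oligodendrocyte sums of 1145 to 3107 against 4219 to 4682 CPM. All 6 microglial and 4 border macrophage markers and 1 of 5 endothelial markers were above, and the part of these cells was not tested.

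Both calls against the negative fraction were lost in some fits with a mouse left out, while the directions stayed the same. Calls over all genes also fell, from 1759 higher and 1593 lower to 1177 and 570 without mouse 192. They were 1151 and 868 without mouse 194 and 1371 and 866 without mouse 277, and rose to 2090 and 2183 without mouse 155. The Timp2 call was lost without mouse 194 (log2 0.25, adjusted p = 0.0593), 210 (log2 0.26, adjusted p = 0.0509) or 277 (log2 0.27, adjusted p = 0.0594), and the Timp3 call without mouse 192 (log2 -0.33, adjusted p = 0.153), 194 (log2 -0.31, adjusted p = 0.0689) or 277 (log2 -0.40, adjusted p = 0.0843). Timp3 also lost its call when genes needed a mean of at least 100 counts (log2 -0.35, adjusted p = 0.0531). Mmp17 passed without mouse 155 (log2 -0.23, adjusted p = 0.0297), with DESeq size factors (adjusted p = 0.0486), with totals alone (adjusted p = 0.0458) and with DESeq2 (adjusted p = 0.0267). Without mouse 277, the log2 difference of Mmp16 turned from -0.16 to 0.03. Within the sets of mice Mmp16 was at 0.42 (adjusted p = 0.135) in the first and -0.74 (adjusted p = 0.00381) in the second. Timp3 was called lower in both (log2 -0.61 and -0.21, adjusted p = 0.0165 and 0.0416), Timp2 was called higher in the second alone (log2 0.26 and 0.29, adjusted p = 0.153 and 0.000493), and Timp4 was called lower in the first alone (log2 -0.74 and -0.07, adjusted p = 0.0386 and 0.428). Over all genes, 2304 of 14030 were called higher and 1178 lower in the first set, and 2679 and 2358 of 14075 in the second. The negative fraction of mouse 155 was low in Timp3, Mmp15 and Mmp24, at 123, 28.6 and 62.4 CPM, and high in Timp4, at 73.8 CPM, relative to the other 5 negative libraries.

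Against whole tissue, Timp3 and the proteases Mmp15 and Mmp16 fell and Mmp24 rose. Timp3 was 164 to 212 CPM (median 194) in whole tissue (log2 -0.81, SE 0.14, adjusted p = 0.000369), Mmp15 31.4 to 57.6 CPM (median 51.1; log2 -0.67, SE 0.14, adjusted p = 0.00172) and Mmp16 13.1 to 19.8 CPM (median 16.2; log2 -1.0, SE 0.20, adjusted p = 0.00128). Timp3 and Mmp16 did not overlap between these groups. Mmp24, at 46.4 to 77.9 CPM (median 54.7) in whole tissue, was higher in the positive fraction (log2 0.40, SE 0.13, adjusted p = 0.0199), a call lost without mouse 194 (log2 0.34, adjusted p = 0.0503), 209 (log2 0.33, adjusted p = 0.0888) or 277 (log2 0.32, adjusted p = 0.0941). Timp2, Timp4, Mmp14 and Mmp17 had log2 differences of -0.10, -0.17, -0.03 and 0.13 with adjusted p from 0.244 to 0.834. That of Mmp14 was 0.02 without mouse 209 and 0.01 without mouse 277. Within the sets of mice Timp3 (log2 -1.17 and -0.57, adjusted p = 0.000302 and 0.00457) and Mmp16 (log2 -0.98 and -1.2, adjusted p = 0.00123 and 0.0022) were called lower in both, Mmp15 in the first (log2 -1.08 and -0.40, adjusted p = 0.000179 and 0.0886), and Mmp24 was called higher in the second (log2 0.29 and 0.46, adjusted p = 0.203 and 0.047). Over all genes, 3435 of 14305 were called higher and 3727 lower in the first set, and 2365 and 2378 of 13715 in the second. In all 1 of 8 genes was called higher, where 27.5% of 13470 genes were, and 3 lower, where 24.3% were. Below whole tissue without overlap were 6 of 6 oligodendrocyte, 4 of 4 oligodendrocyte precursor, 3 of 6 astrocyte, 2 of 5 endothelial, 2 of 5 pericyte and smooth muscle and 1 of 4 ependymal markers, and above it were all 6 microglial, all 4 border macrophage and 2 of 6 neuronal markers. The astrocyte sum was 2464 to 2963 CPM and the oligodendrocyte sum 5587 to 7645 CPM in whole tissue, and the part of these cells was not tested.

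Input itself differed from whole tissue. Mmp24 (log2 0.68, SE 0.11, adjusted p = 0.000636) and Mmp17 (log2 0.45, SE 0.09, adjusted p = 0.00206) were higher in input, and Timp2 (log2 -0.33, SE 0.07, adjusted p = 0.00178), Timp3 (log2 -0.34, SE 0.07, adjusted p = 0.00216) and Mmp15 (log2 -0.41, SE 0.11, adjusted p = 0.0118) were lower. This made 2 of 8 genes higher, where 16.3% of 13608 genes were, and 3 lower, where 14.2% were. Mmp24 was 90.1 to 102 CPM in input and 46.4 to 77.9 CPM in whole tissue with no overlap, and Mmp17 was 133 to 173 CPM against 90.3 to 123 CPM, again with no overlap. The Mmp15 call was lost with the mouse as a block (log2 -0.37, adjusted p = 0.0682) and without mouse 194 (log2 -0.33, adjusted p = 0.0781) or 277 (log2 -0.37, adjusted p = 0.0636), while Mmp14 passed without mouse 192 (log2 -0.32, adjusted p = 0.0208) and Mmp16 without mouse 210 or 277 (log2 -0.47 both times, adjusted p = 0.0223 and 0.0445), with DESeq size factors (adjusted p = 0.0471) and with DESeq2 (adjusted p = 0.0345). All 5 endothelial markers were lower in input than in whole tissue without overlap, at a summed 67.8 to 85.5 CPM against 115 to 221 CPM, with 0 of them listed at 0. The oligodendrocyte sum was also lower in input, at 3983 to 4619 CPM against 5587 to 7645 CPM, although 1 of its 6 markers lay below whole tissue without overlap. Also 1 of 6 astrocyte, 3 of 4 ependymal and 2 of 5 pericyte and smooth muscle markers lay below whole tissue. The neuronal sum was higher in input, at 6223 to 6570 CPM against 4866 to 6092 CPM, with 2 of 6 markers above without overlap, and Mmp24 was higher in the same libraries. The part of these cell types in the differences of the TIMPs and proteases was not tested. The whole tissue library of mouse 210, the shallowest, had the lowest Timp2, Timp3, Mmp15 and Mmp16 and the highest Timp4, Mmp14 and Mmp24 of the 5.

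Between the negative fraction and input, 0 of the 8 genes passed in either direction in edgeR's test, where 1.41% of 13748 genes were called higher and 4.7% lower. At an unadjusted p under 0.05 there was 1, Mmp16 (6.71 to 12.4 CPM against 10.3 to 16.3 CPM; log2 -0.47, SE 0.16, adjusted p = 0.0746), and DESeq2 called the same gene. With the mouse as a block, Mmp16 (log2 -0.47, adjusted p = 0.000528) and Mmp24 (log2 -0.17, adjusted p = 0.0267) were lower and Timp4 (log2 0.14, adjusted p = 0.0456) was higher in the negative fraction. Timp4 was higher in 6 of 6 mice and Mmp16 lower in 6 of 6. Without mouse 155 Mmp16 was called lower (log2 -0.46, adjusted p = 0.0208). The number of genes called over the whole table also rested on that mouse, at 194 higher and 646 lower with it and 1774 and 2041 without it. Of the markers, 2 of 6 microglial ones lay below input without overlap, and all others overlapped. In every mouse the choroid plexus sum (892 to 1373 against 800 to 973 CPM) and the ependymal sum (25.5 to 40.3 against 23.0 to 33.2 CPM) were higher in the negative fraction. The pericyte and smooth muscle sum was lower in every mouse (28.1 to 43.2 against 37.9 to 51.2 CPM). The part of these cells was not tested.

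Among the 6 Cx3cr1-NuTRAP positive libraries, Timp3, Timp4, Mmp15 and Mmp16 separated the sets of mice without overlap. The sets were made from all genes of these same libraries, so some separation is built in. The share of all genes that separate the sets was not counted, and nothing particular to these genes is read from it. Timp3 was 98.6, 93.9 and 71.0 CPM in mice 155, 192 and 194 and 123, 142 and 116 CPM in mice 209, 210 and 277. Timp4 was 36.0, 45.5 and 24.3 CPM in the first set and 50.9, 52.6 and 49.2 CPM in the second, and Mmp15 27.7, 26.7 and 24.5 CPM against 36.3, 33.5 and 33.0 CPM. Mmp16 ran the opposite way, again without overlap, at 9.96, 11.4 and 8.88 CPM in the first set and 7.99, 6.61 and 4.79 CPM in the second. Of the 12 marker sums, 6 separated the sets. The astrocyte sum was 1376 to 1804 CPM in the first set and 2090 to 2247 CPM in the second, the neuronal sum 4479 to 5146 against 6138 to 6906 CPM, the endothelial sum 61.9 to 82.6 against 129 to 138 CPM, the choroid plexus sum 209 to 824 against 894 to 1015 CPM and the erythrocyte sum 24.4 to 114 against 226 to 419 CPM. The border macrophage sum was higher in the first set, at 75.9 to 178 against 59.8 to 75.5 CPM. The microglial sum overlapped, at 3234 to 5646 CPM against 2366 to 3301 CPM. The sum of the 6 microglial markers was highest in mouse 194, at 5646 CPM, and that library had the lowest Timp3 (71.0 CPM), Timp4 (24.3 CPM) and Mmp15 (24.5 CPM) of the 6. It was lowest in mouse 209, at 2366 CPM, and that library had the highest Mmp15 (36.3 CPM), with Timp3 at 123 CPM and Timp4 at 50.9 CPM. The astrocyte marker sum ran the other way, at 1376 CPM in mouse 194 and 2090 CPM in mouse 209. It was not alone in this, since the library of mouse 194 was also the lowest of the 6 in the neuronal (4479 CPM), oligodendrocyte (1145 CPM), oligodendrocyte precursor (87.5 CPM), choroid plexus (209 CPM), ependymal (15.9 CPM) and erythrocyte (24.4 CPM) sums, where the library of mouse 209 had 6906, 3107, 194, 999, 26.4 and 226 CPM. The part of these cells in the levels of Timp3, Timp4 and Mmp15 was not tested. Timp2 did not fall in the same way: it was 484 CPM in mouse 194 and 510 CPM in mouse 209, against 399 to 438 CPM in input. These are 6 libraries that share a protocol and no test was made of the relation.

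**Figure D5:**
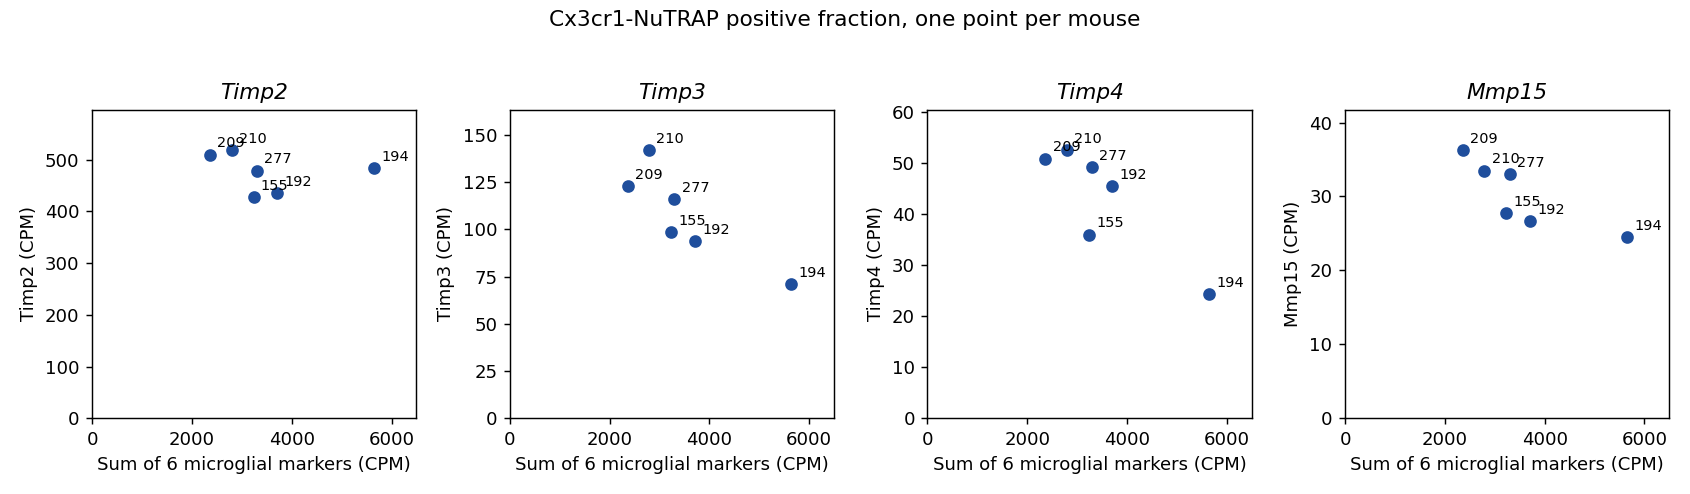
Level of Timp2, Timp3, Timp4 and Mmp15 (vertical axes, CPM) against the summed level of 6 microglial markers (horizontal axis, CPM) in the 6 Cx3cr1-NuTRAP positive libraries, each point labelled with its mouse number. The library of mouse 194, at 5646 CPM of marker sum, is the lowest in Timp3, Timp4 and Mmp15 and is within the range of the others in Timp2.

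Ordered by mean level, Timp4 went from the Aldh1l1-NuTRAP positive fraction (493 ± 129 CPM, n = 3) to the Cx3cr1-NuTRAP negative fraction (57.7 ± 8.28, n = 6), input (52.5 ± 5.07, n = 6), whole tissue (49.6 ± 14.7, n = 5) and positive fraction (43.1 ± 10.9, n = 6), and last the Aldh1l1-NuTRAP negative fraction (37.7 ± 8.86, n = 3). After the first step every pair of neighbours overlapped. Timp3 and Mmp14 had the same kind of order, with the Aldh1l1-NuTRAP positive fraction apart at 529 ± 115 and 147 ± 8.37 CPM and the next group, Cx3cr1-NuTRAP whole tissue, at 191 ± 18.9 and 29.3 ± 4.66 CPM. For Timp2 the Aldh1l1-NuTRAP positive fraction came last, at 228 ± 57.5 CPM, below the Cx3cr1-NuTRAP negative fraction at 403 ± 30.2 CPM.

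Other proteases and partners of the pathway were counted from lists. Of 18 other matrix metalloproteases, 6 were expressed enough to be tested in the Cx3cr1-NuTRAP positive fraction against input, with 2 higher and 0 lower (median log2 0.31, against 0.00 over all tested genes). Over all 13838 genes tested in this comparison 23.3% were called higher and 25.6% lower, which is the background for this and the next 3 lists. Mmp23 rose (5.57 ± 3.06 against 2.15 ± 0.472 CPM, n = 6 each; log2 1.40, SE 0.32, adjusted p = 0.00272). The other was Mmp2, the gelatinase whose activation runs through Mmp14 and Timp2, which changed by less than 2-fold (log2 0.54, SE 0.17, adjusted p = 0.0154) and is named here after its value was seen. Of 7 partners, among them Furin, the convertase that activates membrane-type proteases, and Reck, a membrane inhibitor of them, 3 were higher and 1 lower (median 0.12). Of 8 ADAM proteases tested, a family of membrane-anchored proteases of which Timp3 inhibits some members, 4 were higher and 4 lower (median 0.20). The higher ones included Adam8 (6.34 ± 5.38 against 1.96 ± 0.442 CPM; log2 1.71, SE 0.56, adjusted p = 0.0225) and Adam33 (8.94 ± 7.23 against 3.03 ± 0.305 CPM; log2 1.59, SE 0.50, adjusted p = 0.0191).

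The rises of Mmp23, Adam8 and Adam33 lay mostly in mice 155, 192 and 194. Mmp23 was 7.58, 5.47 and 10.6 CPM in their positive libraries and 2.57, 3.36 and 3.78 CPM in those of mice 209, 210 and 277, against 1.49 to 2.73 CPM in input. It was called higher in the first set (log2 1.95, adjusted p = 0.000364) and not in the second (log2 0.59, adjusted p = 0.067). Adam8 was 11.0, 7.79 and 13.9 CPM in the positive libraries of mice 155, 192 and 194 and 0.898 to 2.68 CPM in the other 3, and input was 1.54 to 2.67 CPM. Its call was lost without mouse 155 (log2 1.44, adjusted p = 0.0866) or 194 (log2 1.33, adjusted p = 0.0971) and with the mouse as a block (log2 1.25, adjusted p = 0.0907). Adam33 lost its call in the same cases (log2 1.41, 1.26 and 1.16, adjusted p = 0.0666, 0.0744 and 0.0585). In the first set alone Adam8 and Adam33 were called higher (log2 2.5 and 2.24, adjusted p = 4.04e-05 and 3.64e-05), and in the second they were not (log2 -0.13 and 0.04, adjusted p = 0.781 and 0.906). Of 15 ADAMTS proteases tested, a secreted family whose members cleave proteoglycans, procollagens or other matrix proteins, 0 were higher and 6 lower (median -0.34), where 23.3% and 25.6% of all tested genes were. Adamts4, an aggrecanase, fell from 34.1 ± 4.47 CPM in input to 14.4 ± 2.03 CPM in the positive fraction (log2 -1.23, SE 0.11, adjusted p = 1.17e-06), with no overlap and lower in 6 of 6 mice.

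In the Aldh1l1-NuTRAP contrast the same lists are given as values, beside 26.8% of all tested genes called higher and 24.8% called lower. Of the 7 partners edgeR called 5 higher and 0 lower (median log2 0.64, against 0.04 over all tested genes), led by Cd63, the tetraspanin that binds Timp1 (478 ± 114 against 99.2 ± 30.2 CPM, n = 3 each; log2 2.61, SE 0.29), and Cd44, the hyaluronan receptor (13.8 ± 4.04 against 5.37 ± 1.89 CPM; log2 1.70, SE 0.32). Of 12 ADAMTS proteases tested 2 were called higher and 5 lower (median -0.77). Adamts9 was higher (log2 1.27, SE 0.29), and Adamts3, Adamts4, Adamts16 and Adamts19 were lower (log2 -1.72, -2.08, -1.39 and -1.52). Of 7 ADAM proteases tested 1 was called higher and 2 lower (median -0.29), the lower ones being Adam12 (log2 -1.25) and Adam19 (log2 -2.18). Only 2 of 18 other matrix metalloproteases were tested, Mmp11 (3.62 ± 0.417 against 1.31 ± 0.552 CPM; log2 1.87, SE 0.40) and Mmp28 (4.47 ± 2.30 against 1.28 ± 0.893 CPM; log2 2.08, SE 0.60). Both entered the test through the positive fraction alone, since they had 15 to 32 and 3 to 45 counts in the negative libraries, so a rise was fixed by the filter and is no result. In the same way Adam12, Adamts17 and Adamts19 entered through the negative fraction alone, the group in which they were higher.

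Across the 29 libraries, the genes whose log2 CPM was most like that of Timp4 by Pearson's r among 14109 genes were Lxn (r = 0.995), Pla2g7 (0.991) and Hopx (0.989). For Timp3 they were Sall2, Tmem47 and Slc1a4 (0.985 each) and for Mmp14 Cxcl14 (0.988), Serpine2 (0.985) and Zfyve21 (0.979). For Timp2 they were Zfp92 (0.965), March1 (0.952) and Pcdhgc4 (0.952). These correlations are descriptions over libraries of 6 groups that share mice, and the 3 Aldh1l1-NuTRAP positive libraries lie far from the rest in all of them.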

How the data were processed

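The authors ran TRAP-RNAseq on hemisected brains of both lines and used Strand NGS for trimming, for alignment to mm10 and for assignment to RefSeq genes, with directional library settings. The raw values the authors deposited are expected counts per gene, without normalization. Of the nonzero values, 82.4% were not whole (tolerance 1e-06), so values were rounded before testing. The log2 values the authors deposited, made with DESeq normalization, were not used.

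CPM is the count over the library total, and RPKM divides it by GENCODE exon length. A gene was tested when all libraries of 1 of the 2 compared groups had more than 20 counts. The test was that of edgeR 4.0.16 (R 4.3.3; TMM scaling, robust quasi-likelihood test, two-sided), with Benjamini-Hochberg adjustment over all tested genes and a threshold of 0.05, after a check on simulated data. An SE is the log2 difference over the square root of F, and a 95% interval uses the normal quantile. Only the groups compared entered a fit, without the mouse. Alternatives were other scalings, DESeq2 1.42.0, other filters, all 6 groups in 1 fit, the mouse as a block each mouse left out and, chosen after seeing the data, 2 sets of mice fitted apart. Libraries with the same animal number come from the same mouse. Residuals of paired libraries correlated above 0.1 in all 3 Aldh1l1-NuTRAP pairs. In Cx3cr1-NuTRAP mice this held for 5 of 6 pairs of negative library and input, 3 of 6 pairs of positive library and input, 3 of 6 pairs of positive and negative library, and 0 of 5 pairs that include whole tissue.

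The genes, the lists and the tests were chosen with earlier results of these data known. Named are the 9 genes, list genes at 2-fold in the Aldh1l1-NuTRAP contrast or past the test and 2-fold in the Cx3cr1-NuTRAP positive fraction against input, the synapsins, and the 3 most alike genes by r of log2 CPM (prior count 2). Counting error sets the precision of low genes, with 1 count being worth more CPM in shallow libraries. The sex of each mouse is not in the labels.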

Additional observations from a re-analysis of the deposited data

Results flagged for a closer look

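In 36 groups of 4 to 10 libraries of one gene, 4 held a library far from the rest by Dixon's criterion, where chance gives about 1 in 20. The Cx3cr1-NuTRAP negative library of mouse 155 was far from the other 5 in Timp3 (123 CPM, low), Timp4 (73.8 CPM, high) and Mmp15 (28.6 CPM, low). The Cx3cr1-NuTRAP positive library of mouse 210 was far from the other 5 in Mmp14 (34.2 CPM, high).

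For 4 genes every mouse of one line moved one way between positive and negative fraction and every mouse of the other line the opposite way. The share of all genes with this pattern was not counted, so nothing particular to these genes is read from it. The mean log2 ratios, within mice and on library totals, were -0.93 (Aldh1l1-NuTRAP, n = 3) and 0.24 (Cx3cr1-NuTRAP, n = 6) for Timp2, 2.12 and -0.45 for Timp3, 3.69 and -0.46 for Timp4, and 0.93 and -0.22 for Mmp15. The difference between the lines was not tested, since the genes were picked on the Aldh1l1-NuTRAP contrast.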

How the results depend on the processing

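Of 768 refitted log2 differences of single genes, 703 kept their direction and their side of the threshold, 33 lost and 24 gained a call, and 8 turned in direction: Mmp16 against the negative fraction without mouse 277 (0.03), Mmp14 against whole tissue without mouse 209 (0.02) or 277 (0.01), Timp4 in input against whole tissue without mouse 277 (-0.02), and, for the positive fraction within a set of mice, Timp4 against input in mice 209, 210 and 277 (0.04) and, in mice 155, 192 and 194, Mmp16 against the negative fraction (0.42) and Mmp14 (0.11) and Mmp17 (-0.03) against whole tissue. Over all mice left out in turn, the first 3 differences ranged from -0.30 to 0.03, from -0.11 to 0.02 and from -0.02 to 0.26. For the Cx3cr1-NuTRAP positive fraction against input, 3 genes were lower with all groups in 1 fit (Mmp15 and Mmp24 lost their calls). Against the negative fraction, 2 were lower with DESeq size factors, with totals only and with DESeq2, and 0 with a mean of at least 100 counts, and leaving out a mouse gave 0 to 1 higher and 0 to 2 lower. Against whole tissue, leaving out a mouse gave 0 to 1 higher. In the negative fraction against input, DESeq2 called 1 lower, and leaving out a mouse gave 0 to 1 lower. With the mouse as a block, 1 was higher and 2 lower there, and the block changed no other count by over 1.5 times. In mice 155, 192 and 194 alone, 0 genes were higher than input, 0 higher and 2 lower than the negative fraction, and 0 higher than whole tissue, and in mice 209, 210 and 277 alone, 3 were lower than input and 2 lower than the negative fraction. The causes were not tested. Over all genes, the negative fraction against input had 194 higher and 646 lower calls. These became 2431 and 2684 with the block, 763 and 1287 with DESeq2, 53 and 228 with no filter and 0 and 59 with all groups in 1 fit. With a mouse left out they were 0 to 1774 and 0 to 2041, the highest being without mouse 155. For the positive against the negative fraction, calls over all genes fell from 1759 higher and 1593 lower to as few as 1151 (without mouse 194) and 570 (without mouse 192), and reached 2679 higher in mice 209, 210 and 277 alone. Against whole tissue they fell from 3705 to 2365 higher in the same 3 mice. Input against whole tissue fell from 2217 higher to 1121 with all groups in 1 fit, and from 1927 lower to 1190 without mouse 194, and the Aldh1l1-NuTRAP contrast from 3569 and 3299 to 1977 (without mouse 293) and 1600 (without mouse 294). Mean levels in CPM moved by more than 1 SD under TMM scaling for 8 genes in the Aldh1l1-NuTRAP positive fraction and for Timp2 in Cx3cr1-NuTRAP input, and both family sums in RPKM did so in the same 2 groups. Timp1 had too few counts for its level to be compared, and the whole tissue library of mouse 210, at 4260949 counts, is the least precise.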
